A study of Mus musculus with 56 samples.

Results

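Kidneys of day-fed and night-fed mice were compared at the same point of the feeding cycle, the end of the daily fast just before food returned, which the 2 regimens reach at opposite light transitions. All mice were C57BL/6J females of 9 weeks on normal chow. They had 7 days of free feeding in a cycle of 12 h light and 12 h dark, and then 7 days with food by day only (daytime-restricted feeding, DRF) or by night only (nighttime-restricted feeding, NRF). Under DRF the fast ends at lights-on, so the 4 mice of zeitgeber time 0 (ZT0, lights-on) and the 4 mice of ZT24 formed one arm. Under NRF it ends at lights-off, so the 4 mice of ZT12 formed the other. These 12 libraries were taken by their labels alone, out of 56 poly(A) RNA-seq libraries in 14 groups of regimen and time. No drug or mutation was used, and no unrestricted group was analysed here, so each difference is between the 2 regimens.

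The circadian clock is a transcriptional feedback loop that runs in nearly every cell. BMAL1 (encoded by Arntl) pairs with CLOCK or NPAS2, binds E-boxes and drives the period and cryptochrome genes, whose proteins repress it, while REV-ERB and ROR proteins set the level of Arntl itself. Light sets the loop through the brain clock, and meal time acts on peripheral organs. In the kidney the clock adjusts tubular transport of salt and solutes over the day, and fasting separately turns on genes of fat and ketone use. A match at the end of the fast sets the feeding state alike by the regimen names and leaves the light phase opposite. Food intake, activity and the depth of the fast were not matched, and their part was not tested.

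Levels are linear TPM, transcript abundances corrected for gene length and library depth, rebuilt from the deposited values. Differences are DRF minus NRF on the log2(TPM + 1) scale with their standard error (SE), and a gene was called where limma's Benjamini-Hochberg adjusted p was under 0.05. The 12 libraries held 25224700 to 26418900 rebuilt reads each. Nothing in the labels says that the mice came from separate cages or days, so p-values measure the spread between these samples. The 8 proximal tubule markers of the labelled organ summed to 62712 to 141126 TPM in the DRF mice and 85811 to 121617 TPM in the NRF mice. Of 12 marker lists none differed in summed TPM between the arms after adjustment (exact permutation test over samples, 2-sided, 495 splits, smallest adjusted p = 0.17), although NRF ZT12 replicate 1 stood apart. Its 9 adipose markers summed to 3272 TPM, against 132, 359 and 41.2 TPM in the other NRF mice and 26.5 to 218 TPM (median 39.5) in the DRF mice, with Adipoq (adiponectin) at 316 TPM and Ucp1, the brown fat uncoupler, at 118 TPM. Among the libraries at other times, which also enter the fit, the highest in this sum were NRF ZT16 replicates 1 and 2, at 1946 and 1063 TPM (median of the 55 libraries besides NRF ZT12 replicate 1, 49.6 TPM). The DRF minus NRF difference of that sum was -2.39 on the log2 scale (exact permutation p = 0.030, adjusted p = 0.18), and 6 of the 9 markers were at 0 in at least 1 of the 12 libraries. Values without this mouse stand beside the results that rest on it, and otherwise its part in them was not tested. In bulk tissue fewer cells of a type and less RNA per cell cannot be told apart.

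Most genes were alike in the 2 regimens at the end of the fast on the log2(TPM + 1) scale. Of 13158 genes with a mean of at least 1 TPM, 1347 were called (10.2%), 638 higher in DRF (4.85%) and 709 lower (5.39%), and 85 of these changed at least 2-fold. The median log2 difference over all genes was -0.011. Of the calls 47.4% were higher, beside 60.9% when the deposited values were taken as linear TPM. For 11636 genes (88.4%) the whole 95% confidence interval of the difference lay within 1.5-fold. This scale shrinks the differences of low genes, which therefore fall within 1.5-fold more easily. Bhlhe41, for example, was 5.57-fold apart by its means and 3.14-fold on this scale. With a pseudocount of 0.1 in place of 1, 115 calls changed at least 2-fold. Without NRF ZT12 replicate 1 the calls numbered 995 (7.56%), with 509 higher (3.87%) and 486 lower (3.69%). The values of the 8 DRF and the 4 NRF mice did not overlap at all in 812 genes (6.17%), and 685 of these were called. DRF ZT24 against DRF ZT0, the same clock time a day apart, gave 0 calls (0%) by limma, with 481 genes at an unadjusted p under 0.05, and also 0 calls after median-of-ratios scaling. Kap, the androgen-regulated protein of the proximal tubule and the most abundant transcript, overlapped widely, at 78169.6, 69524, 74661 and 107879 TPM in the NRF mice and 47017 to 128677 TPM (median 79304) in the DRF mice (-0.088 ± 0.27, adjusted p = 0.92).

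The clock genes departed from this likeness. Of 19 clock genes tested 18 were called, 4 higher and 14 lower in DRF, beside 10.2% of all genes. The DRF and NRF values of these 18 did not overlap, beside 6.17% of all genes, and all 18 were also called without NRF ZT12 replicate 1.

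Among the activators, Arntl stood at 1.34, 0.439, 0.405 and 0.331 TPM in the NRF mice and at 9.40 to 15.7 TPM (median 11.9) in the DRF mice. Its means differed 19.3-fold, with a log2 difference of 3.04 ± 0.15, adjusted p = 1.3e-20. Npas2, which can take the place of CLOCK beside BMAL1, stood at 1.07, 0.344, 0.416 and 0.236 TPM in NRF and 12.0 to 20.7 TPM (median 16.6) in DRF (3.51 ± 0.15, adjusted p = 2.3e-22). In both genes the highest NRF value was that of replicate 1. Clock moved much less, from 12.3, 10.8, 8.73 and 10.6 TPM in NRF to 13.3 to 18.97 TPM (median 16.3) in DRF (0.58 ± 0.10, adjusted p = 2.9e-05).

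The repressors lay the other way, and all 8 of 8 were lower in DRF, with a median log2 difference of -1.61 beside -0.011 over all genes. Per2 stood at 44.8, 47.7, 48.8 and 54.6 TPM in the NRF mice and 4.02 to 11.04 TPM (median 5.34) in the DRF mice, 8.33-fold apart by the means (-2.91 ± 0.15, adjusted p = 1.3e-19). Ciart (CHRONO), which binds BMAL1 and blocks it, stood at 42.9, 38.3, 41.6 and 34.5 TPM in NRF and 1.39 to 3.31 TPM (median 2.24) in DRF, 17.3-fold apart (-3.65 ± 0.17, adjusted p = 1.9e-21). Both were high in every NRF mouse and low in every DRF mouse. By their means Per3 was 6.45-fold, Bhlhe41 5.57-fold, Cry2 3.21-fold, Per1 2.29-fold, Cry1 2.28-fold and Bhlhe40 1.71-fold higher in NRF. Per1, which glucocorticoids also induce, stood at 60.2, 56.7, 61.3 and 62.5 TPM against 19.1 to 31.2 TPM (median 26.2).

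The promoters of some of these genes are shown because the loop acts through them and because the genes moved together. RefSeq promoters (GRCm38.p6) were found for 15 of the 18 called clock genes. The E-box CACGTG, which reads alike on both strands, lay in the 250 bases before a start site of 5 of the 15, and in the same stretch of 6.86% of all 27025 genes. All 5 were lower in DRF, as were 11 of the 15. They were Ciart, Cry1, Per1, Tef and Bhlhe41. The D-box forms TTATGCAA and TTACGTAA, searched on both strands, lay in 1 of the 15, Per1, and in 0.944% of all genes. Other D-box forms were not searched, among them TTATGTAA, which the window of Per3 holds. The ROR element, AGGTCA preceded by AANT and also searched on both strands, lay in 0 of the 15 and 0.211% of all. Other forms of this element and bases after a start site were not searched. The 0 therefore says nothing of the element elsewhere in these genes, Arntl among them. A gene was counted once, by any of its start sites in the table. A match describes letters and is no evidence of binding. The windows of Ciart (chr3:95882229-95882478, minus strand), Cry1 (chr10:85185055-85185304, minus strand) and Per1 (chr11:69098699-69098948, plus strand) run 5′ to 3′ and end at the start site. Capitals mark the E-boxes and, near the end of the Per1 window, the D-box. The E-boxes of Ciart begin 116, 58 and 44 bases before its start site, that of Cry1 60 and that of Per1 166 bases before.
Ciart: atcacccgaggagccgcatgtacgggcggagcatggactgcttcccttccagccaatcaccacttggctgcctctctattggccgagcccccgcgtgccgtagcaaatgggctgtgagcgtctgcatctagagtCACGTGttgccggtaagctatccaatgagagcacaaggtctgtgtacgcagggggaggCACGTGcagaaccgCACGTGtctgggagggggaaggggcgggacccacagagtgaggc
Cry1: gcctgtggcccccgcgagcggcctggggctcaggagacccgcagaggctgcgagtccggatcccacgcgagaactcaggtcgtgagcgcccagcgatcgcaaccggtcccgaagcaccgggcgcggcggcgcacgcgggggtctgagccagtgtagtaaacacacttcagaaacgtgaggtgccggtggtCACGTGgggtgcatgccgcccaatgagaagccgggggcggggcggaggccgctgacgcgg
Per1: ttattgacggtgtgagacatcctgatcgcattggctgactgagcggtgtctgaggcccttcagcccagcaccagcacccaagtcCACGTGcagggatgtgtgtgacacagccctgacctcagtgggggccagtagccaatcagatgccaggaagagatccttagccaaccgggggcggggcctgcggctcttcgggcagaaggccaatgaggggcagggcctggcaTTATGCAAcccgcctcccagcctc

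In the stabilising loop both REV-ERB genes were lower in DRF. Nr1d2 (REV-ERB beta) stood at 125, 113, 112 and 107 TPM in NRF and 27.4 to 47.0 TPM (median 36.8) in DRF (-1.62 ± 0.13, adjusted p = 3.8e-13). Nr1d1 (REV-ERB alpha) stood at 113, 86.4, 99.0 and 90.6 TPM against 26.1 to 71.5 TPM (median 50.8, log2 difference -0.98 ± 0.22, adjusted p = 0.0015), and its call was lost when DRF ZT24 alone was set against NRF ZT12. Rora, a ROR activator, was the clock gene without a call, at 21.3, 22.5, 19.5 and 19.1 TPM in NRF and 16.2 to 20.1 TPM (median 17.7) in DRF, with a 95% interval of -0.37 to 0.0025.

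The PAR bZIP factors, which carry the clock signal to output genes through D-boxes, were all lower in DRF. Dbp stood at 215, 225, 246 and 216 TPM in the NRF mice and 6.74 to 33.3 TPM (median 12.8) in the DRF mice, 15.2-fold apart by the means (-3.99 ± 0.28, adjusted p = 1.8e-15). Tef stood at 226, 225, 232 and 221 TPM against 48.7 to 85.3 TPM (median 59.6, log2 difference -1.88 ± 0.10), and Hlf at 112, 113, 114 and 86.3 TPM against 41.9 to 66.9 TPM (median 52.7, log2 difference -0.94 ± 0.10). Nfil3, which competes with these factors for their sites, was higher in DRF, at 21.3 to 36.4 TPM (median 31.3) against 7.21, 12.5, 11.2 and 17.2 TPM (1.26 ± 0.16, adjusted p = 8.7e-08). Reads of Dbp and Nr1d1 came out partly as fractions. Shared reads and a wrong gene length can both do this, and which holds was not tested.

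The falls carried on into a list of 15 clock output genes of the kidney, of which 12 were lower in DRF, beside 5.39% of all genes, and 0 were higher, with a median log2 difference of -0.83. On the log2 scale Usp2, a deubiquitinase, fell by 1.70, Tsc22d3 (GILZ) by 1.47, Coq10b by 1.44, Wee1, the mitotic kinase, by 1.28, Klf15 by 0.83 and Nampt, the NAD salvage enzyme, by 0.65. Klf10, Lonrf3 and Pxmp4 were not called.

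**Figure D1:**
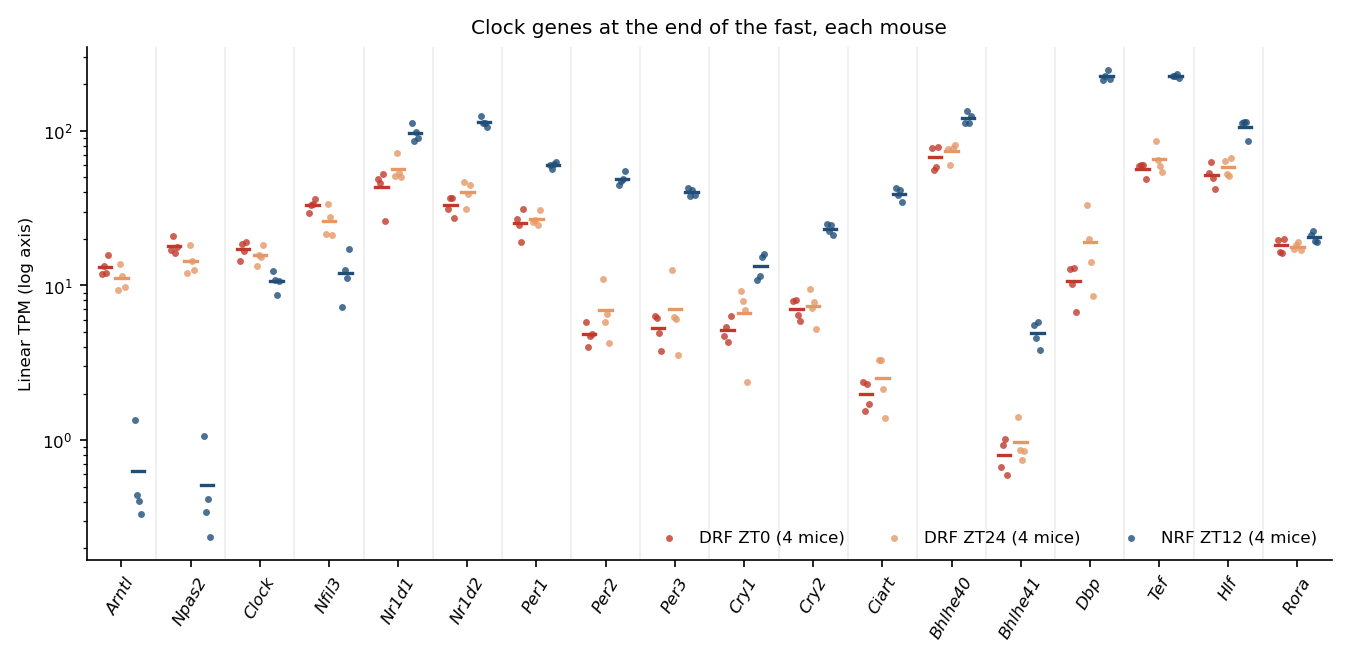
Linear TPM on a log axis of 18 of the 19 clock genes, 1 point per mouse and a bar for the mean of the 4 mice of DRF ZT0, DRF ZT24 and NRF ZT12. Arntl, Npas2, Clock and Nfil3 lie higher in the 8 DRF mice, Rora overlaps, and the other 13 lie lower, with Dbp at 215 to 246 TPM in NRF against at most 33.3 TPM in DRF.

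Outside the clock lists the largest separate rises were in genes of varied roles. Slc16a1 (MCT1, the carrier of lactate and ketone bodies) stood at 19.5, 14.2, 16.9 and 12.7 TPM in the NRF mice and 53.3 to 88.7 TPM (median 70.9) in the DRF mice, 4.51-fold apart by the means (2.10 ± 0.15, adjusted p = 1.9e-15). Ndrg1, a stress-responsive gene, stood at 727, 1000.02, 1042 and 742 TPM against 1931 to 3170.3 TPM (median 2424). On the log2 scale the ubiquitin ligase gene Dtx4 rose by 1.99, Palm3 by 1.61, Ypel2 by 1.599, Ethe1, a mitochondrial persulfide dioxygenase, by 1.25, Avpr1a, the vasopressin V1a receptor, by 1.24, Rasl11a by 1.24, Cdkn1a (p21) by 1.23 and Wsb1 by 1.21. These genes were picked among calls without overlap (6.17% of all genes had none), so every DRF mouse lay above every NRF mouse by selection.

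Among the largest separate falls, Cyp2a5, a cytochrome P450 of foreign compounds, stood at 212, 316, 438 and 318 TPM in NRF and 45.1 to 111 TPM (median 75.9) in DRF (-2.09 ± 0.32, adjusted p = 5.2e-06), with reads that may be shared with related genes. Susd3 fell by 1.69 and Cpeb3, a regulator of translation, by 1.64 on the log2 scale. Herpud1, of the protein degradation machinery of the endoplasmic reticulum, was not among the 12 largest separate falls and was named from a gene list. It stood at 495, 625, 603 and 515 TPM against 204 to 281 TPM (median 251, log2 difference -1.20 ± 0.12, adjusted p = 7.1e-11).

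Genes were sorted into classes in other mice, the 16 of ZT8 and ZT20, by setting late fast against late meal within each regimen. In 453 genes both regimens changed the same way with the fast (feeding-aligned), and in 391 they changed in opposite ways (clock-aligned). At the end of the fast 73 feeding-aligned genes (16.1%) and 191 clock-aligned genes (48.8%) were called, beside 10.2% of all genes. The median absolute log2 difference was 0.095 for feeding-aligned, 0.24 for clock-aligned and 0.089 for all genes, and the interval lay within 1.5-fold for 90.7%, 67.3% and 88.4%. With the classes drawn from ZT4 and ZT16 in place of ZT8 and ZT20, 86 of 461 feeding-aligned genes (18.7%) and 232 of 1086 clock-aligned genes (21.4%) were called, so the gap between the classes depended on the times that defined them. Without NRF ZT12 replicate 1 the shares were 11.9% and 45.3%, beside 7.56% of all genes. The classes were not tested against each other. Of the large rises outside the clock lists, Slc16a1, Ndrg1, Dtx4, Palm3, Ypel2, Ethe1, Avpr1a and Rasl11a were clock-aligned, and Cdkn1a and Wsb1 were in neither class. Of the falls named beside them, Susd3, Cpeb3 and Herpud1 were clock-aligned and Cyp2a5 was in neither class.

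The 6 abundant clock-aligned genes with the largest change in both regimens were Dbp, Ciart, Npas2, Nr1d1, Nfil3 and Nr1d2, described above. The 6 such feeding-aligned genes were Angptl4, Cyp24a1, Pdk4, Lgals4, Nat8f6 and Srebf1. Angptl4, the inhibitor of lipoprotein lipase that fasting induces, overlapped, at 50.8, 28.97, 54.0 and 48.2 TPM in NRF and 29.6 to 63.8 TPM (median 35.8) in DRF (-0.20 ± 0.36, adjusted p = 0.83, 95% interval -0.93 to 0.53). At equal clock time, in comparisons that share mice with this one, it differed by 2.79 at ZT0/24 and -1.21 at ZT12. Lgals4, a galectin, overlapped too, at 34.0, 23.3, 30.4 and 26.8 TPM against 23.2 to 42.3 TPM (median 35.5, log2 difference 0.24 ± 0.15, adjusted p = 0.39), and differed by 1.33 and -1.05 at equal clock time.

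Pdk4, the kinase that shuts off pyruvate oxidation in fasting, was higher in DRF at 60.1 to 128 TPM (median 70.2) against 69.4, 24.7, 37.9 and 38.7 TPM (0.87 ± 0.29, adjusted p = 0.041), and the highest NRF value was that of replicate 1. Its call was lost without NRF ZT12 replicate 2, 3 or 4, without DRF ZT0 replicate 1 and without DRF ZT24 replicate 1, 2 or 3, with adjusted p up to 0.24. Without NRF ZT12 replicate 1 the difference was 1.14 (adjusted p = 0.012). Cyp24a1, which breaks down active vitamin D, ranged widely, from 11.7 to 98.9 TPM in NRF and 56.1 to 322 TPM (median 90.9) in DRF (1.52 ± 0.49, adjusted p = 0.038). Without NRF ZT12 replicate 1 it was 1.33 (adjusted p = 0.14), and leaving out 4 other mice in turn (NRF ZT12 replicate 4, DRF ZT0 replicate 1, DRF ZT24 replicates 3 and 4) also ended its call.

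**Figure D2:**
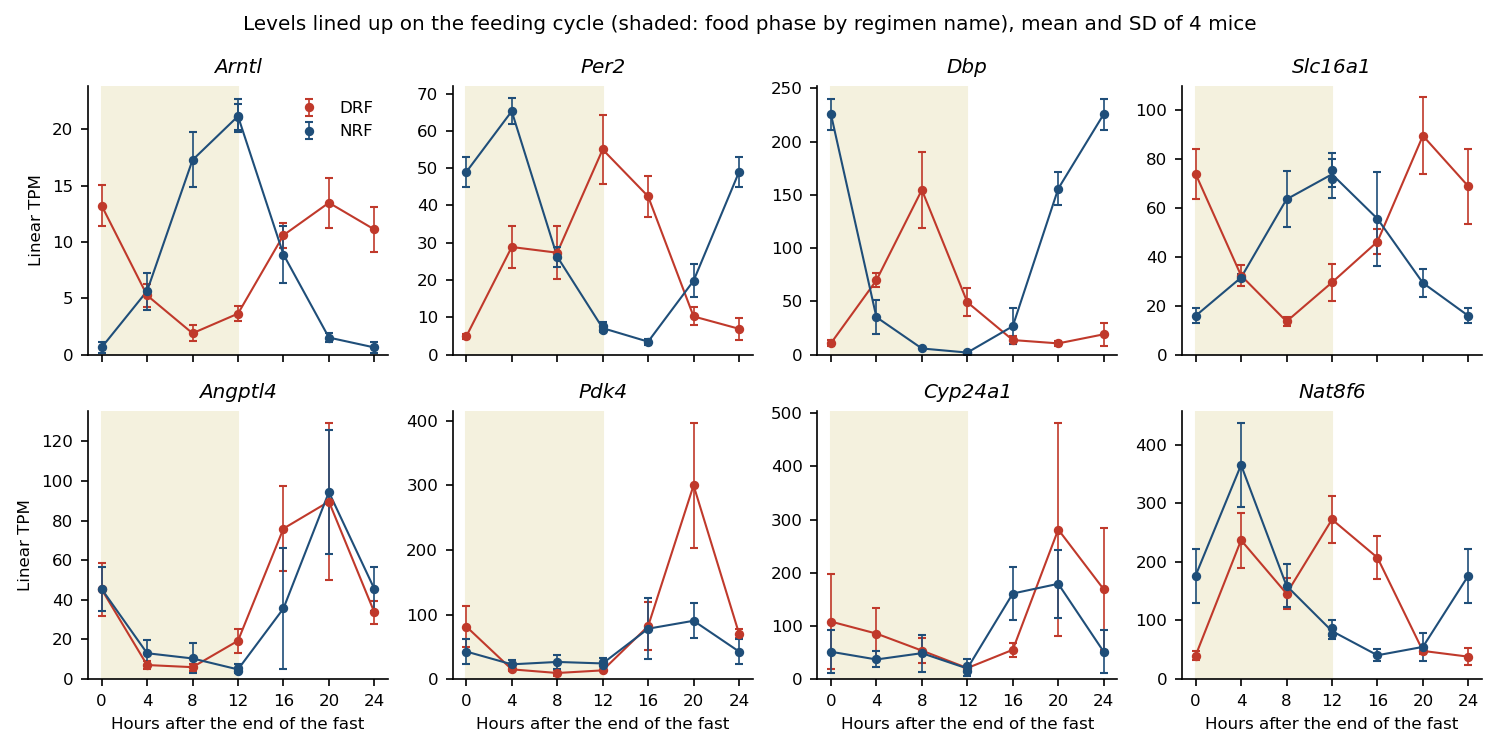
Linear TPM of 8 genes in both regimens against hours after the end of the fast, mean and SD of 4 mice per point, with NRF ZT12 drawn at 0 and again at 24 h and NRF ZT0 and ZT24 both at 12 h. Angptl4 is at 45.3 TPM in DRF ZT0, 33.7 TPM in DRF ZT24 and 45.5 TPM in NRF ZT12, whereas Arntl is at 13.2, 11.1 and 0.629 TPM.

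In the list of the fasting fuel switch 3 of 11 members were higher and 1 was lower in DRF, beside 4.85% and 5.39% of all genes, with a median log2 difference of -0.077. Besides Pdk4, the higher ones were the acyl-CoA thioesterases Acot1, at 83.4 to 150.97 TPM (median 131) in DRF against 67.3, 68.0, 65.7 and 70.3 TPM in NRF (0.84 ± 0.14, adjusted p = 3.1e-05), and Acot2 (0.40 ± 0.11, adjusted p = 0.012), which lost its call without NRF ZT12 replicate 4 (adjusted p = 0.10). They are close copies whose reads the counting could split. Txnip, which limits glucose uptake, was lower (-0.54 ± 0.18, adjusted p = 0.039) and lost its call without NRF ZT12 replicate 1 or 3, DRF ZT0 replicate 3 or 4, or DRF ZT24 replicate 3 or 4, with adjusted p up to 0.19. Cpt1a, which admits fatty acids into mitochondria, stood at 501, 522, 514 and 444 TPM against 423 to 501 TPM (median 435, log2 difference 95% interval -0.33 to 0.0090), beside differences of 0.89 at ZT0/24 and -0.93 at ZT12 at equal clock time. Plin2, Pdk2, Oxct1 and Bdh1 were not called.

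The cold-inducible RNA-binding genes, whose messages follow body temperature, parted slightly. Cirbp stood at 51.2, 57.0, 58.1 and 40.4 TPM in NRF and 40.5 to 71.5 TPM (median 51.7) in DRF, with a 95% interval of -0.24 to 0.24, beside 1.06 at ZT0/24 and -1.16 at ZT12 at equal clock time. Rbm3 was lower in DRF, at 66.4 to 93.3 TPM (median 81.5) against 94.7, 97.3, 106 and 101 TPM (-0.29 ± 0.091, adjusted p = 0.028), without overlap, and lost its call without NRF ZT12 replicate 2, 3 or 4, DRF ZT0 replicate 4 or DRF ZT24 replicate 4, with adjusted p up to 0.11.

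Of 29 PPARA targets and genes of fatty acid oxidation 3 were higher and 4 lower, beside 4.85% higher and 5.39% lower of all genes, with a median log2 difference of -0.026. Cyp4a14, a fatty acid omega-hydroxylase, stood at 1321, 1131, 1089 and 972 TPM in NRF and 1597 to 2962 TPM (median 2384) in DRF (1.02 ± 0.15, adjusted p = 1.3e-06). Its relative Cyp4a10 (0.59 ± 0.16) and the peroxisomal enzyme Ehhadh (0.59 ± 0.14) were also higher. Ppara itself, the receptor for fatty acids, was lower, at 116 to 185 TPM (median 131) against 208, 229.9, 228 and 173 TPM (-0.63 ± 0.13, adjusted p = 0.00045). The other lower members were Eci2 (-0.23 ± 0.056), Acaa1a (-0.33 ± 0.077) and Acaa1b (-0.58 ± 0.19), which lost its call without NRF ZT12 replicate 1, 2 or 3, DRF ZT0 replicate 1 or 4, or DRF ZT24 replicate 3 or 4 (adjusted p up to 0.21). Cyp4a10 was not called without NRF ZT12 replicate 4 (adjusted p = 0.054), nor Ehhadh without replicate 3 (adjusted p = 0.059). Reads of Cyp4a10, Acaa1a and Acaa1b came out partly as fractions, as they can where reads are shared with a copy or the gene length is wrong.

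Of 29 genes of cholesterol and fatty acid synthesis 6 were lower and 0 higher in DRF, with a median log2 difference of -0.20, beside 5.39% lower of all genes. With NRF ZT12 replicate 1 left out, 2 of 29 were lower, with a median of -0.15 for the list, beside 3.69% of all genes then called lower. Fasn, the fatty acid synthase, which fat tissue expresses strongly, stood at 468 TPM in that mouse, 45.1, 74.9 and 18.03 TPM in the other NRF mice and 16.8 to 40.1 TPM (median 19.7) in DRF. Its difference was -1.71 ± 0.57 with the mouse and -0.82 without it (adjusted p = 0.047 and 0.47), and leaving out any other mouse ended the call too, except for DRF ZT0 replicate 1 and NRF ZT12 replicates 2 and 4. Srebf1, the transcription factor that drives lipid synthesis, stood at 42.6, 23.8, 25.4 and 21.7 TPM against 15.2 to 20.3 TPM (median 18.2, log2 difference -0.58 ± 0.14, adjusted p = 0.0025) and became -0.37 (adjusted p = 0.080). Insig1, a brake on SREBP processing that SREBP induces, stood at 77.0, 56.6, 57.4 and 47.9 TPM against 25.1 to 39.98 TPM (median 30.6, log2 difference -0.88 ± 0.15, adjusted p = 3e-05) and remained lower without the mouse (-0.75, adjusted p = 0.0011). The adipose marker Plin4 stood at 52.8 TPM in replicate 1 and at most 6.23 TPM in the other 11 mice, and was called only with that mouse (adjusted p = 0.40 without it).

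**Figure D3:**
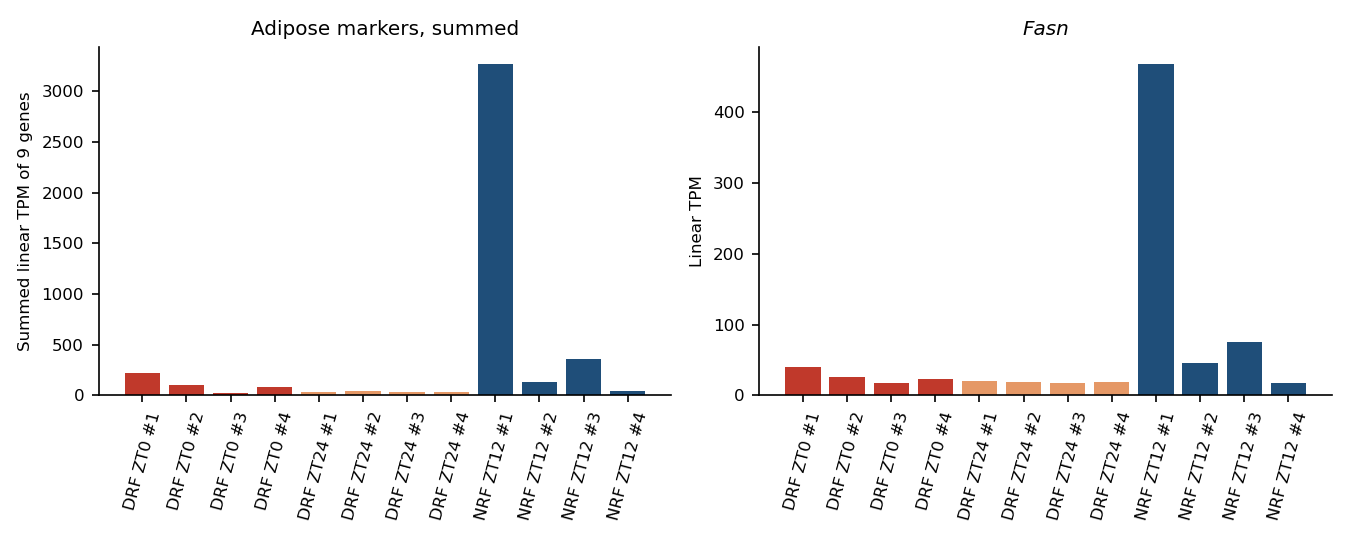
Summed linear TPM of the 9 adipose markers (left) and linear TPM of Fasn (right) in each of the 12 libraries, bars from 0, with # for the replicate number. NRF ZT12 replicate 1 stands at 3272 TPM and 468 TPM, and the other 11 libraries reach at most 359 TPM and 74.9 TPM.

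The Nat8 family, N-acetyltransferases expressed in the proximal tubule, had 6 of 8 members lower and 0 higher in DRF, beside 5.39% lower of all genes, with and without NRF ZT12 replicate 1, and a median log2 difference of -0.80. Nat8f6 stood at 121, 180.3, 172 and 233 TPM in NRF and 20.7 to 52.4 TPM (median 40.04) in DRF (-2.16 ± 0.21, adjusted p = 4.6e-11). In the other mice it had been feeding-aligned, with a late-fast minus late-meal change of -1.57 in DRF and -1.61 in NRF. Nat8f7 (-1.30 ± 0.16) and Nat8f5 (-1.32 ± 0.31) were lower as well, Nat8f5 with overlap, with NRF ZT12 replicate 1 at 18.5 TPM. The members are close copies, so reads may be split among them.

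Sodium and sugar transport genes were called lower in DRF more often than higher. Atp1b1, the beta subunit of the sodium pump, was lower, at 2576 to 3411 TPM (median 2889.7) against 4208, 3979, 3900.3 and 3693 TPM (-0.44 ± 0.066, adjusted p = 2.7e-06). With Scnn1a, the alpha subunit of the epithelial sodium channel, which fell by 0.25, and Tsc22d3 it was among 4 lower members of 20 sodium transport genes, of which 0 were higher. Scnn1a (limma adjusted p = 0.0071) lost its call on CPM, on the deposited values taken as linear TPM, with only the 12 mice and with DRF ZT24 alone. Of 10 sugar transporters 4 were lower and 0 higher, or 3 lower without NRF ZT12 replicate 1. Of all genes 5.39% were lower. The median log2 differences of these 2 lists were -0.18 and -0.21. Slc2a5 (GLUT5, for fructose) stood at 126, 148, 139 and 121 TPM in NRF and 68.5 to 92.0 TPM (median 78.9) in DRF (-0.75 ± 0.12, adjusted p = 1.6e-05). Slc2a9, a urate carrier, fell by 0.61, Slc5a1 (SGLT1) by 0.33 and Slc2a4 (GLUT4, high in fat) by 0.32, the last not called without NRF ZT12 replicate 1 or 3 (adjusted p up to 0.12).

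Slc22a12 (URAT1, which takes up urate from the tubule) was higher, at 1056 to 1632 TPM (median 1422) in DRF against 907, 1009.8, 833 and 1034 TPM in NRF (0.56 ± 0.096, adjusted p = 3.2e-05), and the cation carrier Slc22a4 was lower (-0.70 ± 0.11). Slc9a3r1 (NHERF1), which anchors phosphate transporters, fell by 0.45 and the glucose-6-phosphate carrier Slc37a4 by 0.44. Vdr, the vitamin D receptor, was higher (0.31 ± 0.099, adjusted p = 0.031) but lost its call without NRF ZT12 replicate 1 or 4, DRF ZT0 replicate 2 or DRF ZT24 replicate 4 (adjusted p up to 0.25). The summed level of the 5 glomerular markers did not pass the test (exact permutation p = 0.11).

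Stress and hormone lists were mixed. Of 20 genes of the endoplasmic reticulum 4 were higher and 2 lower, with a median log2 difference of 0.052 for the list, beside 4.85% higher and 5.39% lower of all genes. The chaperones Calr, Pdia6, Pdia3 and Sdf2l1 rose by 0.44, 0.40, 0.26 and 0.68 on the log2 scale, whereas Herpud1 and Dnajb9 fell, Dnajb9 losing its call without NRF ZT12 replicate 1 or 2, DRF ZT0 replicate 3, or DRF ZT24 replicate 1 or 2 (adjusted p up to 0.25). Of 16 glucocorticoid targets 2 were higher, Cdkn1a and Pdk4, and 4 lower, with a list median of -0.19, again beside 4.85% and 5.39% of all genes. Fkbp5, the steroid receptor co-chaperone, stood at 22.9, 19.4, 19.3 and 35.2 TPM in NRF and 8.48 to 13.5 TPM (median 11.7) in DRF (-0.98 ± 0.25, adjusted p = 0.0059), and lost its call without NRF ZT12 replicate 4, the highest (adjusted p = 0.055). The other lower ones were Per1, Tsc22d3 and Klf9, which also stand in the lists of clock or clock output genes.

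Of 20 genes of insulin signalling and FOXO factors Klf15, Foxo3, Pik3ip1 and Foxo1 were lower and Gadd45a, a stress sensor, was higher (0.45 ± 0.089, adjusted p = 0.00027), with a list median of -0.18 and 5 called members, beside 10.2% of all genes. Foxo3 stood at 80.8, 77.0, 69.7 and 78.1 TPM in NRF and 40.2 to 52.3 TPM (median 45.9) in DRF, and Foxo1 lost its call without NRF ZT12 replicate 1 (adjusted p = 0.053). Bnip3, a mitophagy gene, stood at 349, 361, 361 and 379 TPM against 227 to 259 TPM (median 246, log2 difference -0.56 ± 0.049, adjusted p = 2.6e-12). The autophagy list as a whole had 2 of 22 members higher and 1 lower (13.6%, list median -0.0085), beside 10.2% of all genes. Without NRF ZT12 replicate 1 the list had 1 higher and 1 lower. Of 18 immediate early genes Nr4a1 and Myc were higher and Zfp36 lower, all with overlap. These 3 of 18 (16.7%, list median 0.016) stand beside 10.2% of all genes. When NRF ZT12 replicate 1 was left out, Nr4a1 (adjusted p = 0.084) and Myc (adjusted p = 0.13) were not called. Each of these calls was also lost without 6 other mice in turn, and without NRF ZT12 replicate 2 or 3 Zfp36 was not called (adjusted p up to 0.11).

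Several groups gave no call or a share near or below the 10.2% of all genes. Of all 13158 genes, 2860 had an unadjusted p under 0.05 by limma. Of 18 heat shock genes 0 were called by limma, 4 had an unadjusted p under 0.05 and 15 lay within 1.5-fold, and 1 was called after median-of-ratios scaling or without NRF ZT12 replicate 1. The aminoacyl-tRNA synthetases had 0 of 19 called, 2 at an unadjusted p under 0.05, all 19 within 1.5-fold, and 1 called after that scaling. The ATF4 and amino acid response list had 0 of 16 called with 3 at an unadjusted p under 0.05, and the renin-angiotensin list 0 of 9 with 3, both with 0 calls after that scaling, although 1 gene of the ATF4 list was higher without NRF ZT12 replicate 1. In these 2 lists 9 of 16 and 7 of 9 genes lay within 1.5-fold. All 46 ribosomal protein genes, all 34 genes of oxidative phosphorylation and all 31 proteasome genes lay within 1.5-fold, and 4, 2 and 1 of them were higher, or 2, 0 and 1 after median-of-ratios scaling. In these 3 lists 17, 8 and 1 genes had an unadjusted p under 0.05 by limma. Of 36 ribosome biogenesis genes 3 were higher (8.33%) and 35 lay within 1.5-fold. Of 23 interferon genes 2 were higher (8.70%) and only 11 lay within 1.5-fold, with a list median of 0.18. Both shares are near that of all genes.

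**Figure D4:**
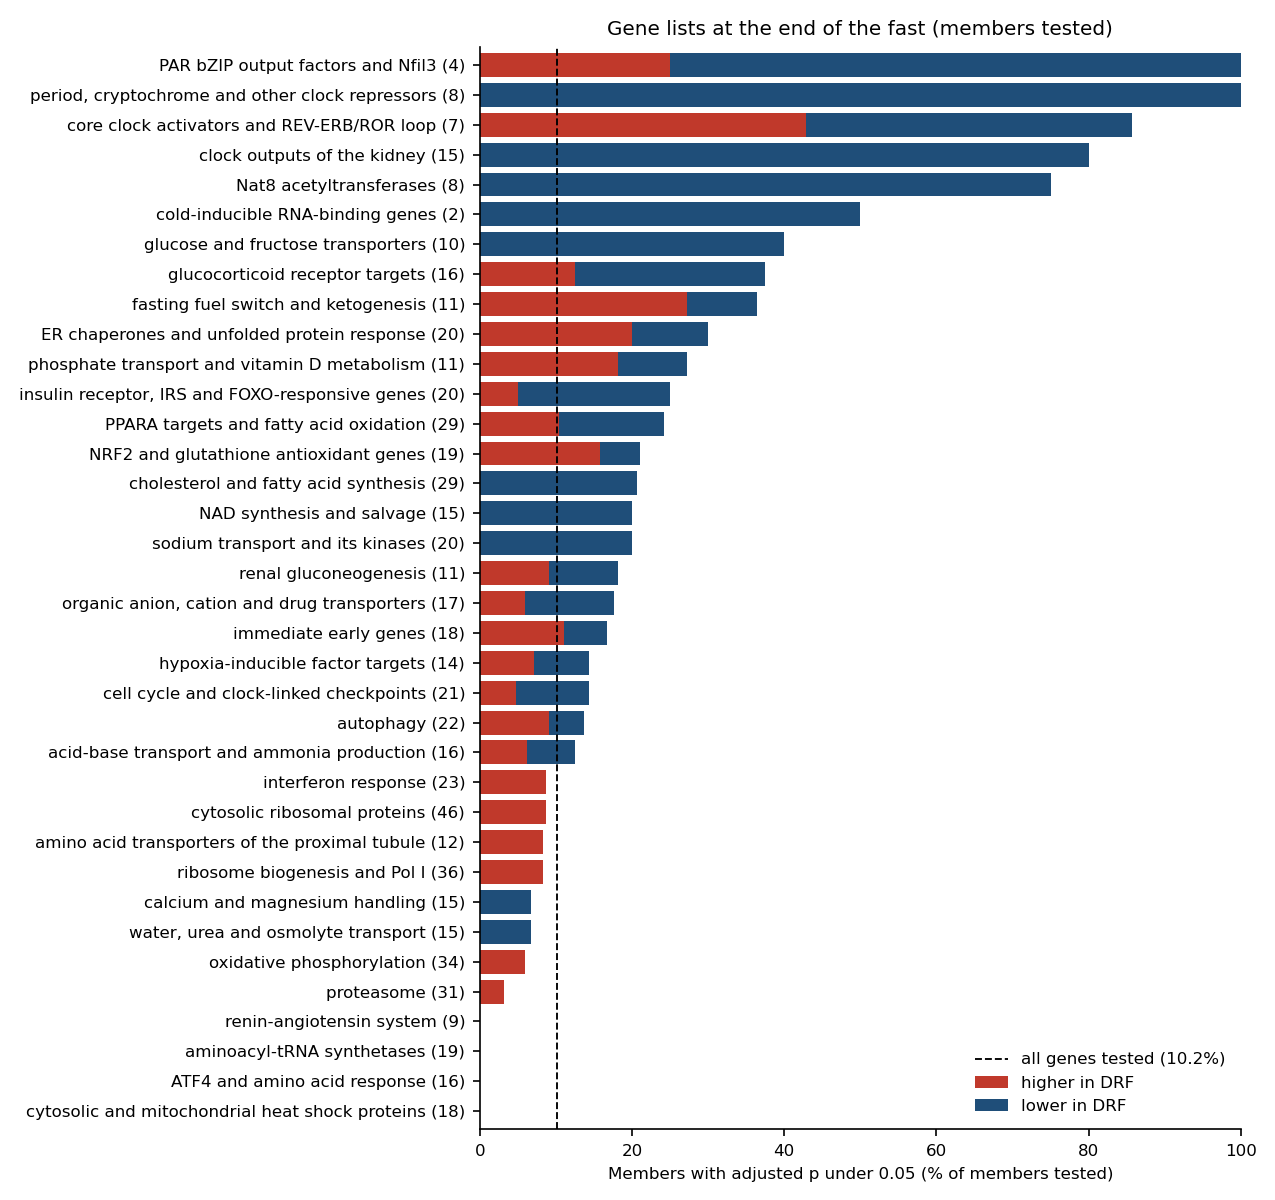
Share of the tested members of each of 36 gene lists that were called at the end of the fast, in percent, split into higher and lower in DRF, with the number tested in brackets and a dashed line at 10.2%, the share of all genes. The clock lists, the clock outputs and the Nat8 list reach 75% or more, and 4 lists have no call.

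The opposite matched state, the end of the meal (DRF ZT12 against NRF ZT0 and ZT24), shares no mouse with the end of the fast. There 2326 genes were called (17.7%), 550 higher (4.18%) and 1776 lower (13.5%), a split that was 1015 and 1215 after median-of-ratios scaling. Of the 1347 genes called at the end of the fast, 597 (44.3%) were called at the end of the meal in the opposite direction, which is 25.7% of the calls there, and 10 in the same direction. Without NRF ZT12 replicate 1 these numbers were 545 and 11. The difference between the 2 ends was itself called for 1131 of the 1347 genes (84.0%), beside 20.7% of all genes, in a test that uses the same mice as these calls. Of the clock genes 16 were called at both ends with opposite signs. Dbp differed by -3.99 at the end of the fast and 4.13 at the end of the meal, Per2 by -2.91 and 2.79, Npas2 by 3.51 and -3.26, and Arntl by 3.04 and -2.27. Outside the clock lists, Slc16a1, a clock-aligned gene (late-fast minus late-meal change 2.63 in DRF and -1.09 in NRF), read 2.10 and -1.32.

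Of the 10 genes with the same direction at both ends 5 were higher in DRF, led by Cyp4a14 (1.02 ± 0.15 at the end of the fast and 0.95 ± 0.15 at the end of the meal). The others were Cyp4a10 (0.59 and 0.59), Slc45a3, a solute carrier (0.65 and 0.48), Ugt1a9, a glucuronosyltransferase (0.76 and 0.62), and Hmgb3 (0.20 and 0.20). Those lower at both ends were Slc5a1, Stard5, Sema4d, Il10rb and Zfp871. Except for Cyp4a10, Cyp4a14 and Slc5a1, the genes of this paragraph were named after their values were seen.

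**Figure D5:**
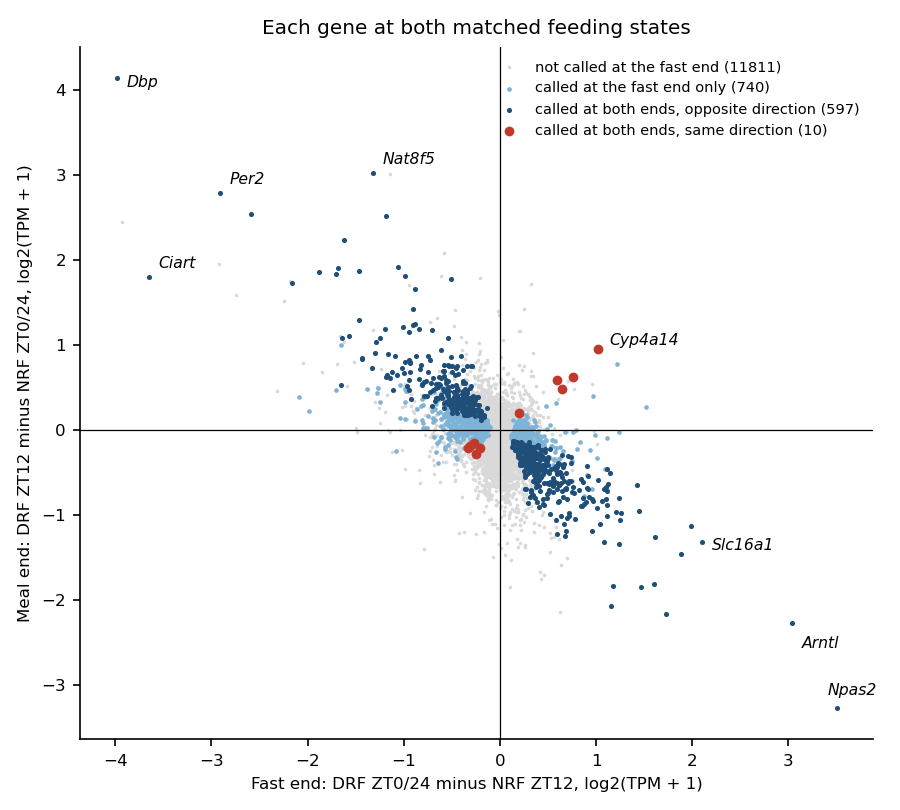
Each of the 13158 genes by its log2 difference, DRF minus NRF, at the end of the fast (horizontal) and of the meal (vertical), coloured by whether it was called. The 597 genes called at both ends with opposite signs run from Dbp at upper left to Npas2 at lower right, and the 10 with the same sign include Cyp4a14 at 1.02 and 0.95.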

How the data were processed

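Poly(A) RNA of kidneys from 56 female mice was sequenced (paired-end reads of 100 bases on a DNA nanoball platform, per the labels). The authors deposited 1 table of 17027 genes named TPM. The submitters' processing notes name HISAT2, Bowtie2, RSEM, mm10 and GRCm38.p6, and which role each had is not given in the sources used here. The deposited values, treated as a score, behaved as log2(CPM + 1) divided by gene length and scaled per sample, so they were inverted to reads and to linear TPM. Of the genes, 15432 gave whole reads, with at least 98.6% of their values whole in every library (tolerance 0.1 read), 1209 gave fractions, 16 were too abundant to check and 370 had no usable length. Genes with fractions and those too abundant to check kept their annotated length. An error in that length would change the size of the difference. Kap and Atp1b1 were among the 16 too abundant to check. Depth per library is that of the rebuilt reads.

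limma 3.58.1 in R 4.3.3 (trend) was fitted to log2(TPM + 1) of all 56 samples in 14 groups, for 13158 genes with a mean of at least 1 TPM, with Benjamini-Hochberg adjustment over them. The contrast was the mean of DRF ZT0 and DRF ZT24 minus NRF ZT12. Fold changes on this scale understate the change of low genes. Marker sums were compared by an exact permutation test over samples. The genes named were clock, fasting fuel and cold-inducible list members, the largest separate rises and falls (12 each, mean of at least 10 TPM), the 3 largest calls per list, members that a count of 5 or fewer needs, the top 6 of each aligned class, and Kap. Plin4 and a few others were named after their values were seen. Members and lists were chosen with earlier results of these data known. Some genes are not reported here. Feeding windows were taken from the regimen names. Alternatives were other scalings, pseudocounts, filters, sample subsets and class definitions.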

Additional observations from a re-analysis of the deposited data

Results flagged for a closer look

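In each group of 4 mice, values whose gap to the nearest of the others took up more of the group's range than Dixon's critical value at the 95% level were marked, which chance does in about 1 in 20 groups. Of 321 groups checked 21 held such a value (6.54%).

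NRF ZT12 replicate 1 held 4 of them. Its summed adipose markers were 3272 TPM (others 41.2 to 359 TPM), Fasn 468 TPM (18.03 to 74.9 TPM), Plin4 52.8 TPM (2.24 to 6.23 TPM) and Arntl 1.34 TPM (0.331 to 0.439 TPM). NRF ZT12 replicate 4 was low in Hlf (86.3 TPM, others 112 to 114 TPM) and Gadd45a (32.9 TPM, others 36.5 to 36.7 TPM), and the liver markers summed to 478 TPM in NRF ZT12 replicate 3 (others 248 to 285 TPM).

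In DRF ZT0, replicate 1 was high in Pdk4 (128 TPM) and Cyp24a1 (241 TPM), replicate 2 in Cpt1a (501 TPM), Cpeb3 (20.6 TPM) and Slc22a4 (88.6 TPM), and replicate 4 was low in Tef (48.7 TPM) and high in the sum of collecting duct markers (1047 TPM). In DRF ZT24, replicate 1 was high in Srebf1 (18.9 TPM) and Slc2a4 (45.7 TPM), replicate 2 in Nr1d1 (71.5 TPM), replicate 3 in Slc45a3 (63.8 TPM) and replicate 4 in Oxct1 (1345 TPM) and Vdr (371 TPM), while the immune markers summed to 49.1 TPM in replicate 4 (others 68.1 to 68.7 TPM).

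The DRF minus NRF difference at the end of the fast differed from that at the end of the meal in 2721 genes by a test of the difference itself (limma, Benjamini-Hochberg adjusted p under 0.05).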

How the results depend on the processing

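The number of genes called at the end of the fast was 1347. It was 870 when only the 12 mice were fitted, 857 with DRF ZT24 alone as the DRF arm, and 261 with a change of at least 1.5-fold required. Leaving out 1 mouse at a time gave 995 (without NRF ZT12 replicate 1) to 1417 calls. Median-of-ratios scaling gave 1582, and the deposited values taken as linear TPM gave 1331 with 60.9% higher, beside 47.4%. At the end of the meal median-of-ratios scaling gave 1015 higher and 1215 lower calls in place of 550 and 1776. With classes limited to changes of at least 1.5-fold, 16 of 58 feeding-aligned and 53 of 74 clock-aligned genes were called.

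Replicate numbers did not clearly pair the samples. The correlation of same-numbered deviations was 0.27 to 0.35 in the 4 pairs of DRF ZT0 with NRF ZT12, -0.18 to 0.33 in those of DRF ZT24 with NRF ZT12 and -0.36 to 0.099 between the DRF groups. Pairs with different numbers ranged from -0.46 to 0.48. The correlation was over 0.1 in 5 of 12 same-numbered pairs and in 12 of 36 others. A fit with the replicate number as a block gave 1315 calls and, among the genes named, ended the call of Myc.

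Of 84 called genes named with values, 70 could be tested under all 23 alternatives and 49 of these were called in each. The other 14 lacked a value under a filter on whole reads or on TPM. Of the 84 genes 0 changed sign. Among those not called, Oxct1 was 0.0061, Cirbp 0.096 and Kap 0.11 with DRF ZT24 alone, which turned their signs. Cirbp was also 0.0099 after median-of-ratios scaling, 0.020 on CPM and 0.0045 on the deposited values. Leaving out 1 mouse at a time gave -0.045 to 0.0029 for Oxct1, -0.11 to 0.056 for Cirbp and -0.18 to 0.048 for Kap. The cause of these changes was not tested. The NRF arm held 4 mice, which limits the precision of every difference.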
